A study of Mus musculus with 6 samples.

Results

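*Sirt7* lies near the end of mouse chromosome 11, and the genes described here are its neighbours on both sides up to 2 Mb away. In the GENCODE M21 annotation of GRCm38, *Sirt7* spans 120618372 to 120625240 on the minus strand of chromosome 11. The annotation places 144 genes within 2 Mb of it, and 6 of them were left out by name, namely *Sirt7* itself, *Fasn*, *P4hb* and the genes whose symbols begin with Mrpl, Nduf or Zfp. The other 138 are the members. They comprise 79 protein-coding genes, 13 lincRNA genes, 13 antisense genes, 11 miRNA genes and 22 of other kinds. Membership rests on position alone and on no measured value. Of the members 133 were measured, out of 54115 genes measured in the series, and the other 5 were not analysed here. Of the measured members 62 had enough reads to be tested, and 55 of these code for proteins.

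Liver RNA was sequenced from 3 WT and 3 *Sirt7* KO mice, and the samples are labelled as biological replicates. All 6 mice were males aged 24 months that had been fasted for 16 h. By the study's methods, the *Sirt7* KO line was backcrossed to C57BL/6J for several generations, and crosses of heterozygous mice gave WT and KO littermates. The knockout is in the whole animal, and the part of *Sirt7* that was removed is not given in the sources used here. Between 9994860 and 13424776 reads were assigned per mouse. The mice varied between replicates by a biological coefficient of variation of 26.4% over all genes. Defining markers of hepatocytes summed to 52778 to 56877 CPM (read counts scaled to library size) in WT mice and 49805 to 59756 CPM in *Sirt7* KO mice, and no marker of the 6 liver cell types examined was at 0 in every mouse. Markers of Kupffer cells, the resident macrophages, summed to 49.96 to 154 CPM and 48.2 to 133 CPM, and those of stellate cells to 165 to 209 CPM and 136 to 216 CPM. Those of sinusoidal endothelial cells summed to 69.8 to 90.9 CPM and 78.0 to 115 CPM, those of cholangiocytes to 47.3 to 72.7 CPM and 53.4 to 71.0 CPM, and those of lymphocytes to 7.35 to 9.57 CPM and 4.03 to 7.97 CPM. In none of the 6 lists did a tested marker have an unadjusted edgeR p under 0.05. Only 4 of 5 cholangiocyte markers and 3 of 6 lymphocyte markers were tested, and all markers of the other lists. In these bulk samples, fewer cells of a type and less RNA per cell cannot be told apart.

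A gene beside a targeted gene is a useful control in a knockout study. An inserted cassette or a deletion can disturb nearby promoters, and genes linked to a targeted allele tend to travel with it on backcrossing, so that a stretch of the chromosome can keep the sequence of the strain in which the allele was made. The haplotypes of these mice were not analysed here. SIRT7 is a deacylase of the sirtuin family that acts on chromatin and in the nucleolus. Its neighbours have no common function: they include a glucagon receptor, an enzyme of phospholipid synthesis, Polycomb proteins, lysosomal enzymes and subunits of protein complexes that most cells use.

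The stretch is dense with genes. In 6 pairs, tested protein-coding members start back to back on opposite strands, without overlap and less than 1 kb apart. Pairs that overlap at their starts, such as *Ogfod3* and *Hexdc*, were left out. In the 6 pairs a single short stretch of DNA lies between the starts of both genes. These stretches are printed because each lies before 2 genes, so that the values of both partners, given further on, can be read beside the bases between them. They are given 5′ to 3′ on the plus strand of chromosome 11 in GRCm38, between the annotated starts of GENCODE M21 and RefSeq. Capitals mark, on either strand, the letters CCAAT (the CCAAT box), GGGCGG (the GC box) or CCGGAAG (an ETS-type element). No 2 of these matches overlap. The stretches hold 20 bases (chr11:119355537-119355556), 44 bases (chr11:120458071-120458114), 27 bases (chr11:120467608-120467634), 55 bases (chr11:120598366-120598420), 116 bases (chr11:120713809-120713924) and 62 bases (chr11:120784208-120784269), in the order of the lines.
*Sgsh* and *Slc26a11*: gtgcacggcaggccCCGCCC
*Oxld1* and *Ccdc137*: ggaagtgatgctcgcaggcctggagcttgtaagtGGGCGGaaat
*Arl16* and *Hgs*: ggcggcgcggaggcgttgcgcgtgcgc
*Alyref* and *Anapc11*: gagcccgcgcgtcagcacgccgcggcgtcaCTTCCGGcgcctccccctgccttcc
*Cenpx* and *Lrrc45*: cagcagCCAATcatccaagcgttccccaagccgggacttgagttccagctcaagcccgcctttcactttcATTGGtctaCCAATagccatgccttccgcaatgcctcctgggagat
*Rfng* and *Gps1*: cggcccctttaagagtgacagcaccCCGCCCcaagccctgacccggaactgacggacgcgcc

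The *Cenpx* and *Lrrc45* stretch holds 3 CCAAT matches, 4 of the others hold 1 match each, and the *Arl16* and *Hgs* stretch holds none. Around transcript starts, in windows of 300 bases (250 before the start and 50 after it, RefSeq on GRCm38.p6), 60 windows could be found for 47 of the 62 tested members. The letters GGGCGG were in 63.3% of the windows of members, in 60.0% of the 11889 windows of tested genes and in 35.7% of all 32851 windows. CCGGAAG was in 26.7%, 17.6% and 8.86% of these windows, CCAAT in 48.3%, 37.9% and 37.4%, and TATAAA, the TATA box, in 6.67%, 7.86% and 13.6%. These shares describe the letters only, and were not tested.

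*Sirt7* itself was read first. Its level was 55.2, 45.5 and 47.3 CPM in WT mice and 28.6, 41.7 and 40.8 CPM in KO mice. The genotypes did not overlap, but reads remained in the mice labelled KO, at 37.0 ± 7.34 CPM beside 49.3 ± 5.19 CPM in WT mice (SD, n = 3). The log2 fold change (KO over WT, here and below) was −0.41 (SE 0.18, 95% interval −0.82 to −0.01), with an adjusted p of 0.42 in edgeR's quasi-likelihood test with Benjamini-Hochberg adjustment over all genes tested. An exact two-sided permutation test gave p = 0.1, the smallest it can give with 3 mice against 3. With an offset for the average transcript length the sign turned, to 0.80. The full-length transcript Sirt7-201, with 10 exons, took 65.8%, 76.0% and 63.9% of the gene's reads in WT mice and 39.8%, 34.3% and 18.3% in KO mice. On this measure too, every KO mouse was below every WT mouse, with means of 68.6% ± 6.5 and 30.8% ± 11.2 (SD, n = 3). The study also measured *Sirt7* by qRT-PCR in heart, liver and epididymal white adipose tissue. The captions of both figures hold the mark N.D., for not detected. A primer pair reads part of a transcript, whereas the counts here sum reads over all transcripts of the gene. Which part of *Sirt7* the remaining reads came from was not tested.

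No member was called at an adjusted p under 0.05 and a fold change over 1.5, by edgeR or by DESeq2. In edgeR the same rule called 1 of all 12524 genes tested (0.00798%). DESeq2 called 257 of 12186 genes (2.11%) and 0 of 61 members, and with the average transcript length as an offset it called 240 of 13267 genes (1.81%) and 0 of 63 members. At an unadjusted p under 0.05 in edgeR there were 5 of 62 members (8.06%), beside 11.3% of all genes tested. Of these, 4 were higher in KO mice (6.45%, beside 6.54% of all genes) and 1 was lower (1.61%, beside 4.78%). In 6 members (9.68%, beside 16.8% of all genes) every KO mouse lay on one side of every WT mouse. These were 4 members with higher levels in KO mice (6.45%, beside 8.74%) and 2 with lower levels (3.23%, beside 8.09%). The shares of members were therefore near or below those of genes anywhere in the genome. The count at p under 0.05 depended on single mice. It was 8 of 63 members without *Sirt7* KO mouse 1 (17.1% of all genes), 1 of 63 without *Sirt7* KO mouse 2 (7.59%) and 3 of 64 without WT mouse 2 (8.95%). The count without overlap was 12, 12 and 10 without WT mouse 1, 2 or 3 and 19, 11 and 14 without *Sirt7* KO mouse 1, 2 or 3, beside 23.7% to 36.4% of all genes.

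The differences were small. Over the 62 tested members the median log2 fold change was 0.01, beside −0.01 over all genes tested, and 33 members (53.2%) had a value above 0, beside 49.3% of all genes. The median size of the log2 fold change, without its sign, was 0.19 for members and 0.23 for all genes. The lowest value was −1.26 and the highest 0.74. The fold change was over 1.5 in 4 members (6.45%), beside 16.2% of all genes. In 42 members (67.7%), beside 59.4% of all genes, the 95% interval of the log2 fold change lay within a 2-fold change in either direction. Members were read about as deeply as other genes, with a median of 148 reads per gene beside 129, and their median SE was 0.25, as over all genes. With libraries scaled to their total counts alone, the median over all genes moved to −0.11 and that over members to −0.10, and 24 members were above 0, beside 4583 of the 12524 genes.

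**Figure D1:**
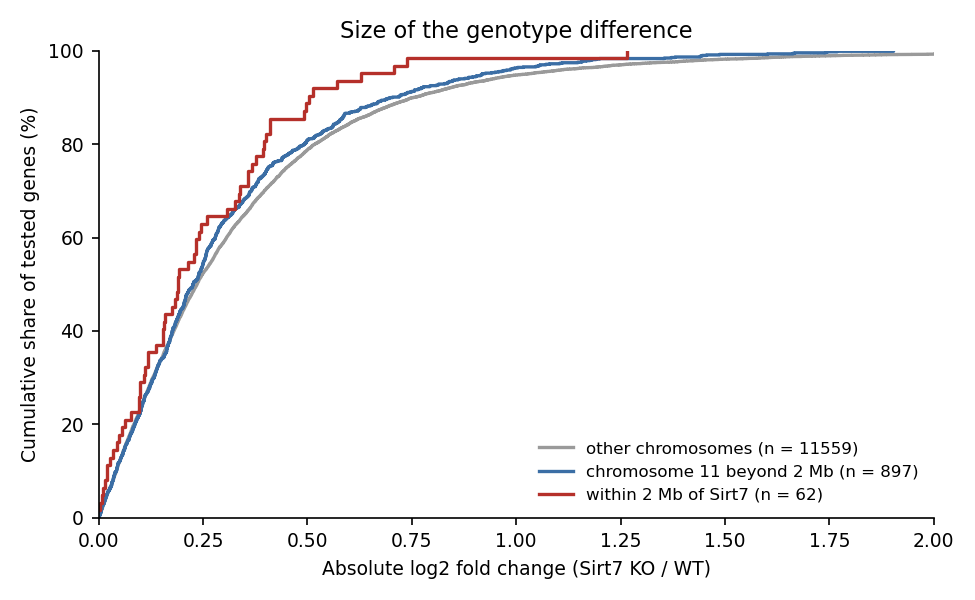
Size of the log2 fold change without its sign (x axis, up to 2) against the cumulative share of genes in percent (y axis) for the members, for the rest of chromosome 11 and for the other chromosomes. The medians are 0.19, 0.23 and 0.24, and the curve of the members rises a little earlier than the other curves.

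The differences did not fall steadily with distance from *Sirt7*, and the value with the largest size, −1.26 for *Myadml2os*, lay in the nearest class. Of the 14 tested members under 100 kb from *Sirt7*, 0 had an unadjusted edgeR p under 0.05 and 2 (14.3%) had genotypes that did not overlap. From 100 to 500 kb these counts were 3 (15.0%) and 2 of 20 members, from 500 kb to 1 Mb they were 0 and 0 of 16, and from 1 to 2 Mb they were 2 (16.7%) and 2 (16.7%) of 12. On chromosome 11 beyond 2 Mb, 93 (10.4%) and 145 (16.2%) of 897 genes were counted, and on other chromosomes 1317 (11.4%) and 1954 (16.9%) of 11559. The median size of the log2 fold change was 0.22, 0.18, 0.17 and 0.33 from the nearest to the farthest of the member classes. The class from 1 to 2 Mb also had the fewest reads, with a median of 75.3 reads per gene beside 303 in the nearest class. Across the 62 members, the Spearman rank correlation between the size of the log2 fold change and distance was 0.08, and with mean CPM it was −0.12. All these points share the same 6 libraries.

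**Figure D2:**
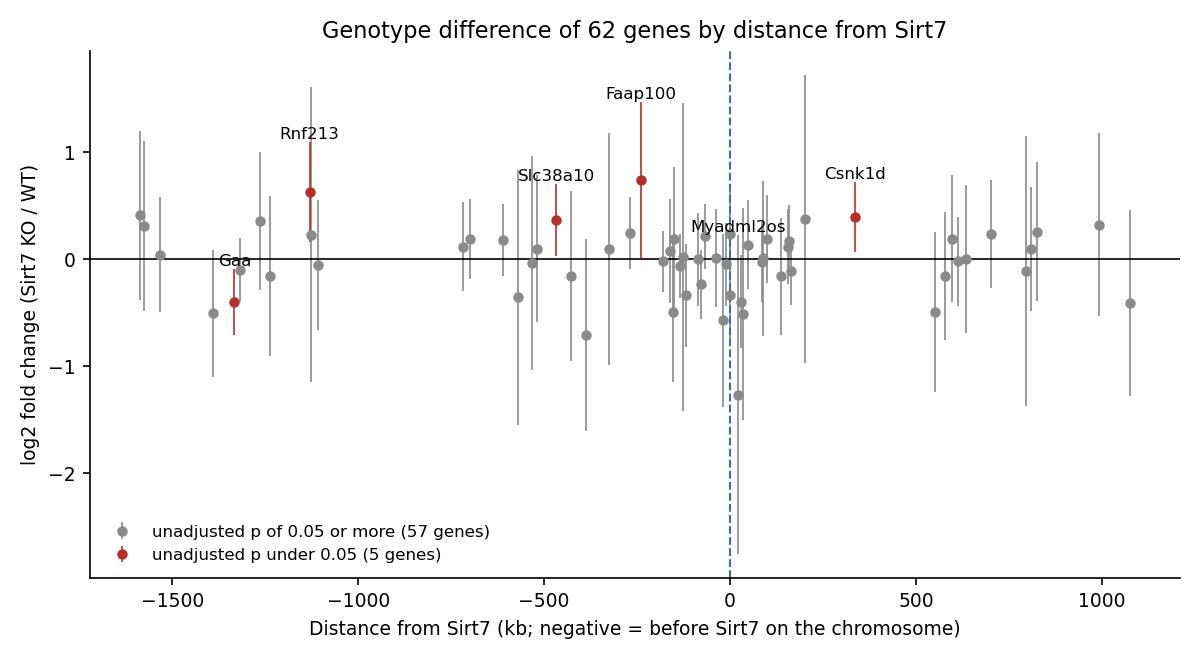
Distance from *Sirt7* in kb (x axis, negative before *Sirt7* on the chromosome) against the log2 fold change of KO over WT (y axis) for the 62 tested members. Points are estimates of edgeR and bars their 95% intervals, and the 5 members with an unadjusted p under 0.05 lie between 240 and 1333 kb from *Sirt7*.

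Before *Sirt7* on the chromosome, toward the centromere, 37 members were tested, and after it, toward the telomere, 25. The last annotated base of the chromosome's genes lies 1345.4 kb after *Sirt7*, so the window is complete on one side only as far as the chromosome goes. Of the members before *Sirt7*, 4 had an unadjusted edgeR p under 0.05 (10.8%) and 5 had genotypes that did not overlap (13.5%). After it there were 1 and 1 (4.0% each). Among whole autosomes the share at p under 0.05 ran from 8.41% (chromosome 14) to 14.2% (chromosome 15), and that without overlap from 13.5% (chromosome 8) to 22.7% (chromosome 15). The farthest tested members, *Cbx2* (1587 kb) and *Cbx8* (1577 kb), encode chromobox proteins of Polycomb complexes. Their log2 fold changes were 0.41 (SE 0.35) and 0.31 (SE 0.35), and their genotypes overlapped. At the edge of the window, the farthest member, *Gm11750* (1824.5 kb), had 0 reads in every mouse, and the first gene outside it, *Engase* (2129 kb), had 59, 45 and 99 reads in WT and 26, 42 and 77 reads in KO mice.

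**Figure D3:**
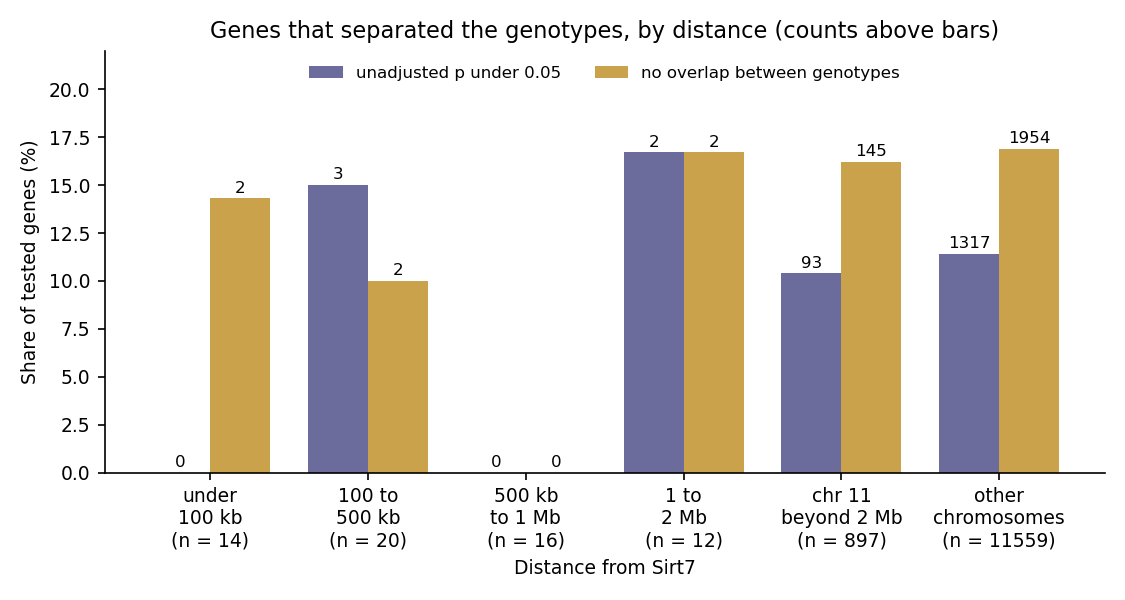
Share of tested genes in percent (y axis) with an unadjusted edgeR p under 0.05 and with genotypes that do not overlap, by distance from *Sirt7* (x axis, with the number of genes), counts above the bars. The members' bars range from 0% to 16.7%, and the bars of the 897 and 11559 other genes stand at 10.4% to 16.9%.

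Summed over the stretch, the genotypes differed by less than the spread between mice. The 133 measured members, tested or not, summed to 2951, 3406 and 2960 CPM in WT mice and 2708, 3440 and 3230 CPM in *Sirt7* KO mice. The sums were 3106 ± 260.3 and 3126 ± 376.8 CPM (SD, n = 3), with p = 0.9 in an exact two-sided permutation test. The lowest and the highest of the 6 mice were both KO mice. The sums rest largely on a few abundant members. Without *Pcyt2* and *Dcxr*, the highest by mean TPM, they were 2138, 2474 and 2123 CPM in WT mice. In KO mice they were then 1924, 2234 and 2201 CPM, so the genotypes still overlapped, but the KO mice now tended lower. These reduced sums were not tested. The median deviation of the tested members from their own mean over mice, on the log2 scale, was −0.05, 0.03 and −0.02 in WT mice. In KO mice it was −0.17, 0.09 and 0.13, with p = 0.9 in the same exact permutation test. *Sirt7* KO mouse 1 was the lowest, while its median over all genes was 0.01.

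The tested members closest to *Sirt7* are *Pcyt2* and *Mafg*, and neither passed the test. *Mir6936*, a miRNA gene inside *Sirt7*, had 0 reads in every mouse. *Pcyt2* (120610087 to 120617936) starts 436 bases beyond the 3′ end of *Sirt7*, on the same strand. It encodes the enzyme that makes CDP-ethanolamine for phosphatidylethanolamine synthesis and was the most abundant member, at a mean of 564 TPM (Salmon's measure of level per transcript length). It had 682, 776 and 661 CPM in WT mice and 642, 997 and 852 CPM in *Sirt7* KO mice. The KO mice spread to both sides of the WT mice, and the log2 fold change was 0.23 (SE 0.19, 95% interval −0.20 to 0.66). *Mafg* (120625117 to 120633600) encodes a small MAF protein, a partner of NRF2 and other transcription factors, and its 3′ end overlaps the 5′ end of *Sirt7*. It had 84.9, 109 and 82.3 CPM in WT and 53.0, 84.8 and 80.5 CPM in KO mice, with a log2 fold change of −0.34 (SE 0.20, 95% interval −0.80 to 0.13). *Sirt7* KO mouse 1 was the lowest, KO mouse 3 lay just under the WT mice and KO mouse 2 among them.

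Further out on the side of *Pcyt2* lie *Anapc11*, *Alyref* and *Arhgdia*. *Anapc11* (10.2 kb away), the RING subunit of the anaphase-promoting complex, had 14.9, 14.2 and 15.9 CPM in WT and 14.5, 12.9 and 16.2 CPM in KO mice, with a log2 fold change of −0.05 (SE 0.17, 95% interval −0.43 to 0.34), or 0.17 with the length offset. Its back-to-back partner *Alyref* (20007 bases), an mRNA export adaptor, had 19.9, 20.7 and 12.4 CPM in WT and 17.5, 12.0 and 6.07 CPM in KO mice. The genotypes overlapped, and the log2 fold change was −0.57 (SE 0.36, 95% interval −1.38 to 0.24). *Arhgdia* (36.7 kb) encodes an inhibitor that keeps small GTPases in the cytosol. It had 82.6, 50.6 and 52.4 CPM in WT and 58.1, 63.3 and 65.7 CPM in KO mice, with a log2 fold change of 0.01 (SE 0.20, 95% interval −0.45 to 0.47), and WT mouse 1 was the highest.

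On the side of *Mafg* lie *Notum* with its antisense partner, *Aspscr1*, and the weakly read *Myadml2os*. *Notum* (28.5 kb) encodes a secreted carboxylesterase that inactivates Wnt proteins, and *Notumos* (33.9 kb) lies on the other strand over it. *Notum* had 41.8, 38.0 and 40.1 CPM in WT and 25.7, 25.6 and 39.8 CPM in KO mice, so that *Sirt7* KO mouse 3 lay within the WT range and the other 2 KO mice were below it. The log2 fold change was −0.40 (SE 0.19, 95% interval −0.83 to 0.04). *Notumos* had 5.84, 5.90 and 3.03 CPM in WT and 1.83, 3.28 and 5.20 CPM in KO mice, with −0.51 (SE 0.44). The 2 genes share 26.2% of the words of 31 bases in *Notum*. The libraries do not mark strand, so reads of a gene and of its antisense partner cannot be told apart there. *Aspscr1* (47.7 kb), also known as TUG, encodes a tether for GLUT4 vesicles. It had 109, 130 and 110 CPM in WT and 98.9, 155 and 130 CPM in KO mice, with 0.14 (SE 0.18).

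The value with the largest size among all tested members came from a gene with few reads. *Myadml2os* (22.4 kb), an antisense RNA, had 9, 18 and 22 reads in WT and 3, 3 and 11 reads in KO mice, or 0.762, 1.63 and 1.63 CPM and 0.275, 0.318 and 1.06 CPM. The genotypes overlapped, and the log2 fold change of −1.26 had an SE of 0.66 and a 95% interval from −2.75 to 0.22. Its words of 31 bases were shared with 2 other genes for 42.7%, of which *Myadml2* took 26.8%. The end of *Myadml2os* (at 120657061) also lies inside *Notum* (120653788 to 120661175), which is on the other strand. Reads of these genes cannot be told apart where they overlap, and how many came from *Notum* was not tested. The closest coding genes that could not be tested were *Npb*, with 0, 3 and 1 reads in WT and 3, 4 and 6 in KO mice, *Pycr1*, with 1, 1 and 1 reads and 0, 0 and 8 reads, and *Myadml2*, with 0 reads in every mouse. In the list of 9 direct neighbours, 6 were tested, 2 had a log2 fold change above 0 and 4 below, 0 had an unadjusted edgeR p under 0.05, and the median was −0.19. For this list and the role lists that follow, the values over all genes tested are 11.3% at an unadjusted p under 0.05, 16.8% without overlap and a median of −0.01, and with 2 to 11 tested members a list's share is coarse.

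**Figure D4:**
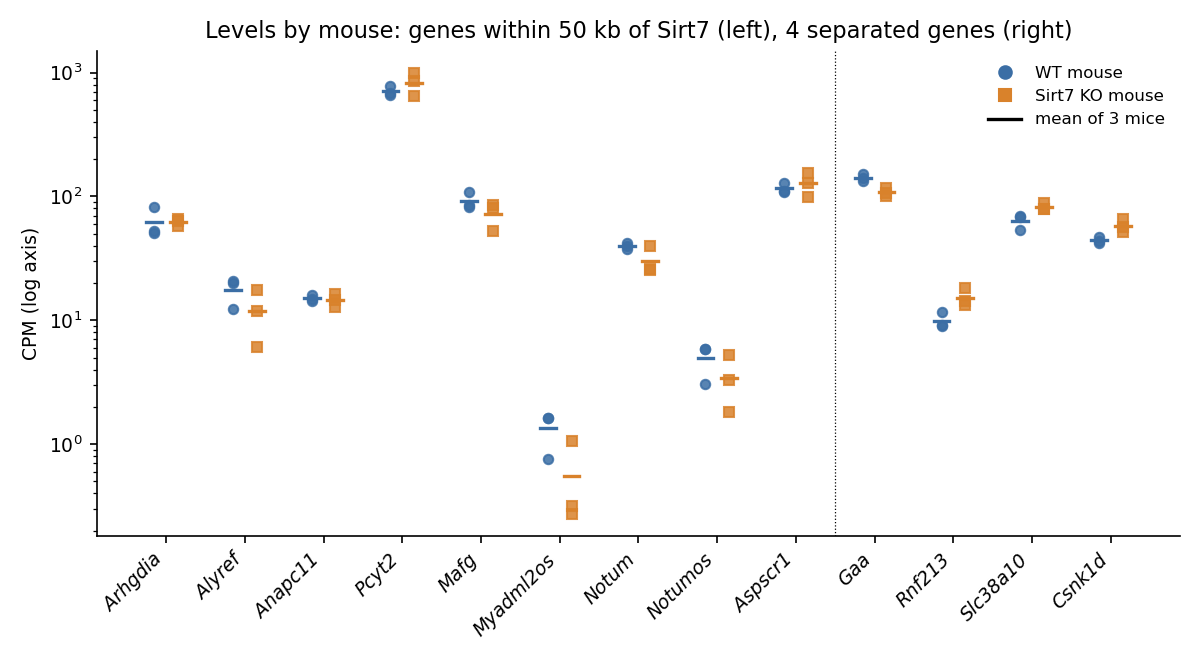
CPM on a log axis (y axis) in each mouse for the tested members within 50 kb of *Sirt7* and for 4 members farther away with an unadjusted p under 0.05 and no overlap (x axis). Circles are WT mice, squares *Sirt7* KO mice and lines the means of 3 mice. The symbols of both genotypes interleave for the near members, and those of *Gaa*, *Rnf213*, *Slc38a10* and *Csnk1d* stand apart.

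Farther away, 4 members had an unadjusted p under 0.05 and genotypes that did not overlap. *Gaa* (1333 kb), acid alpha-glucosidase, breaks down glycogen in lysosomes. It had 134, 152 and 141 CPM in WT and 106, 101 and 117 CPM in KO mice, and every KO mouse was below every WT mouse. The log2 fold change was −0.40 (SE 0.14, 95% interval −0.71 to −0.09), with an adjusted p of 0.32 in edgeR's quasi-likelihood test with Benjamini-Hochberg adjustment. *Rnf213* (1131 kb) encodes a very large E3 ubiquitin ligase with an AAA ATPase core. It had 8.98, 11.6 and 9.10 CPM in WT and 18.2, 14.2 and 13.4 CPM in KO mice, with every KO mouse above every WT mouse. The log2 fold change was 0.63 (SE 0.21, 95% interval 0.16 to 1.10), with an adjusted p of 0.30 by edgeR.

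*Slc38a10* (467 kb) encodes an amino acid transporter of the SLC38 family. It had 68.1, 69.3 and 53.7 CPM in WT and 78.7, 79.6 and 88.1 CPM in KO mice, again without overlap, and a log2 fold change of 0.37 (SE 0.15, 95% interval 0.03 to 0.71, edgeR adjusted p 0.39). *Csnk1d* (337 kb) encodes casein kinase 1 delta, which phosphorylates PER proteins of the circadian clock. It had 46.9, 44.0 and 42.0 CPM in WT and 51.9, 65.9 and 56.7 CPM in KO mice, with 0.39 (SE 0.14, 95% interval 0.07 to 0.72, edgeR adjusted p 0.35). With the libraries scaled to total counts alone, the unadjusted edgeR p of *Csnk1d* and of *Slc38a10* was over 0.05. It was also over 0.05 for *Gaa*, *Slc38a10* and *Csnk1d* without *Sirt7* KO mouse 2, where their log2 fold changes were −0.35, 0.39 and 0.29. Without WT mouse 2 this held for *Gaa* (−0.35) and *Csnk1d* (0.39), without WT mouse 3 for *Csnk1d* (0.36) and *Slc38a10* (0.26), and without *Sirt7* KO mouse 3 for *Slc38a10* (0.31). For *Rnf213* the unadjusted p stayed under 0.05 whichever mouse was left out, with log2 fold changes from 0.48 to 0.76. With the length offset in edgeR, that of *Rnf213* and of *Slc38a10* was over 0.05.

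The next 3 genes, *Faap100*, *Mcrip1* and *2900052L18Rik*, were chosen after their values were seen. The fifth member with an unadjusted p under 0.05 was *Faap100* (240 kb), part of the Fanconi anaemia core complex, with 6.10, 5.62 and 4.14 CPM in WT and 5.22, 10.1 and 11.2 CPM in KO mice. Its genotypes overlapped, since *Sirt7* KO mouse 1 lay among the WT mice, and the log2 fold change was 0.74 (SE 0.32, 95% interval 0.01 to 1.47, edgeR adjusted p 0.43). *Mcrip1* (68.6 kb), which encodes a regulator of the corepressor CtBP, had 28.5, 27.5 and 27.5 CPM in WT and 31.8, 35.0 and 30.2 CPM in KO mice, without overlap, and 0.21 (SE 0.13, 95% interval −0.09 to 0.52). The last member with a fold change over 1.5 beside *Myadml2os*, *Rnf213* and *Faap100* was *2900052L18Rik* (387 kb), a noncoding transcript with 3.22, 3.81 and 1.92 CPM in WT and 1.83, 1.59 and 2.02 CPM in KO mice. Its value was −0.71 (SE 0.40).

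The liver's glucagon receptor gene, *Gcgr*, lies 79.4 kb from *Sirt7* and had 301, 357 and 306 CPM in WT and 256, 283 and 282 CPM in KO mice. The receptor drives glucose output from the liver during fasting. Every KO mouse was below every WT mouse, and the log2 fold change was −0.23 (SE 0.14), with a 95% interval from −0.55 to 0.09 that includes 0. The antisense gene *Gm11789* overlaps its start, at 18.2, 26.9 and 24.9 CPM in WT and 27.2, 22.04 and 20.7 CPM in KO mice. In the list of 15 members for hormone, kinase and GTPase signalling, 11 were tested, 7 were above 0 and 4 below, 1 had an unadjusted edgeR p under 0.05 (*Csnk1d*, beside 11.3% of all genes) and 3 had no overlap between genotypes (*Csnk1d*, *Gcgr* and *Mcrip1*, beside 16.8%), with a median of 0.12. The largest size belonged to *Tbc1d16*, a Rab GTPase-activating protein, with 8.13, 8.62 and 5.47 CPM in WT and 4.76, 5.19 and 5.68 CPM in KO mice and a log2 fold change of −0.50 (SE 0.26).

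Several of the most abundant members serve metabolism. By mean TPM, *Pcyt2* (564) was followed by *Dcxr* (217), *Slc25a10* (187), *Gcgr* (141) and *Aspscr1* (89.0), and the median of the tested members was 8.39 TPM, from a lowest of 0.387. *Dcxr*, dicarbonyl and L-xylulose reductase, had 131, 156 and 175 CPM in WT and 142, 208 and 177 CPM in KO mice, with a log2 fold change of 0.19 (SE 0.18). *Slc25a10*, the mitochondrial dicarboxylate carrier, had 337, 576 and 395 CPM in WT and 316, 387 and 333 CPM in KO mice, with −0.34 (SE 0.21), and WT mouse 2 was the highest. Of the 12 members for metabolism and transport 10 were tested, 5 were above 0 and 5 below, 1 had an unadjusted edgeR p under 0.05 and no overlap (*Slc38a10*), and the median was −0.01. The largest and smallest sizes were those of *Ogfod3*, a 2-oxoglutarate oxygenase family gene, with −0.49 (SE 0.33), and of *Oxld1*, with 0.08 (SE 0.22).

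Among 6 lysosome and glycan enzymes 5 were tested, 3 were above 0 and 2 below, and the median was 0.12. The 1 member with an unadjusted edgeR p under 0.05 was *Gaa*. *Sgsh*, the sulfamidase that breaks down heparan sulfate in the same organelle, had 0.36 (SE 0.28), which is opposite in sign to *Gaa*. *Rfng*, a Golgi enzyme that adds sugars to Notch, had 0.12 (SE 0.15). The 8 members of chromatin and transcription were all tested, with 6 above 0, 2 below, 0 with an unadjusted edgeR p under 0.05 and a median of 0.07. With total counts as the scale only 3 of the 8 were above 0. They include the Polycomb genes *Cbx2* and *Cbx8*, with 0.41 and 0.31, and *Foxk2*, a forkhead factor, with 0.00 (SE 0.31), or −0.88 with the length offset.

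All 5 members for RNA processing and translation had a log2 fold change below 0, also under the other scalings of the libraries, with a median of −0.11, but 0 had an unadjusted edgeR p under 0.05 and 0 had genotypes that did not overlap. *Eif4a3*, a helicase of the exon junction complex, had −0.10 (SE 0.13), and *Dus1l*, a tRNA dihydrouridine synthase, had −0.11 (SE 0.14). *Ccdc137* had −0.50 (SE 0.29) and *Endov*, an inosine-specific ribonuclease, −0.06 (SE 0.27). *Alyref*, described above, had the largest size. *Eif4a3* shares 31.2% of its words of 31 bases with other genes, so its reads may be split between copies.

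The list for ubiquitin, protein turnover and membrane traffic held 12 members, of which 10 were tested, 6 were above 0 and 4 below, with a median of 0.12. The 1 with an unadjusted edgeR p under 0.05 was *Rnf213*. At the other end stood *Nploc4*, the cofactor of the VCP segregase, with 67.1, 61.7 and 63.8 CPM in WT and 62.5, 64.7 and 63.3 CPM in KO mice, a log2 fold change of −0.02 (SE 0.13) and a 95% interval from −0.30 to 0.27. Similarly narrow was *Hgs*, an ESCRT-0 subunit, at −0.06 (SE 0.13). For the cytoskeleton, centrosome and cilium, 7 of 9 members were tested, with 6 above 0, 1 below, 0 with an unadjusted edgeR p under 0.05 and a median of 0.18, and 4 of the 7 were above 0 with total counts as the scale. *Actg1*, gamma actin, had 91.9, 97.7 and 80.8 CPM in WT and 111, 93.0 and 117 CPM in KO mice, with 0.25 (SE 0.15), and 40.2% of its words are shared with 34 other genes. *Ccdc57*, a centrosomal protein gene with 7 to 26 reads per mouse, had 0.38 (SE 0.60), and *Lrrc45*, a centrosomal linker, had 0.01 (SE 0.32). Of 7 secreted or immune surface proteins only *Metrnl*, a secreted meteorin-like factor, and *Notum* were tested, with −0.41 (SE 0.38) and −0.40.

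For the 6 protein-coding back-to-back pairs, the intervening bases are printed above. In 2 of these 6 pairs both log2 fold changes had the same sign. Pairs elsewhere in the genome were not counted, so this count has nothing to be read against. Some values lay near 0, and the signs of *Lrrc45* and *Anapc11* turned when single mice were left out. *Ogfod3* and *Hexdc*, left out because they overlap at their starts, stood at −0.49 and −0.16. *Sgsh* and *Slc26a11*, a sulfate transporter, stood at 0.36 and −0.15, and *Oxld1* and *Ccdc137* at 0.08 and −0.50. *Arl16* and *Hgs* stood at 0.19 and −0.06, *Alyref* and *Anapc11* at −0.57 and −0.05, *Cenpx* and *Lrrc45* at −0.03 and 0.01, and *Rfng* and *Gps1* at 0.12 and 0.18. *Gps1*, a subunit of the COP9 signalosome, shares 43.0% of its words with a copy, *Gm9816*. The SEs of the 12 genes ran from 0.13 to 0.36, and no partner had an unadjusted edgeR p under 0.05.

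Transcripts within a member were compared by the share of its reads on the transcript that was most abundant over all mice. In 4 of 54 members (7.41%) with enough reads, beside 8.73% of 10106 genes, these shares did not overlap between genotypes. All 4 were higher in KO mice, but how many of the 882 such genes over the genome were higher was not counted. The coding transcript Notum-203 took 37.6%, 29.2% and 42.4% of the reads of *Notum* in WT and 60.8%, 65.6% and 49.3% in KO mice, a difference of 22.2 points (36.4% ± 6.7 against 58.6% ± 8.3, SD, n = 3). Alyref-201 took 32.9%, 45.8% and 38.8% in WT and 46.5%, 48.5% and 59.5% in KO mice, a difference of 12.3 points. Gcgr-201 took 65.5%, 70.8% and 68.0% in WT and 73.8%, 76.0% and 74.5% in KO mice, or 6.7 points more. Csnk1d-202 took 71.0%, 70.9% and 75.4% in WT and 76.0%, 78.6% and 76.2% in KO mice, or 4.5 points more. With the length of the transcripts as an offset, the log2 fold change of *Csnk1d* in DESeq2 was 1.09, with an adjusted p of 0.10. Without the offset it was 0.40. The transcripts with most reads, Csnk1d-202 and Csnk1d-201, are close in length, at 3500 and 3675 bases. A shift between them changes the average length little, and what moved the value was not tested. These shares are Salmon's division of reads between similar transcripts. The count of 4 was higher when single mice were left out, at 7, 11 and 12 without WT mouse 1, 2 or 3 and 12, 6 and 9 without *Sirt7* KO mouse 1, 2 or 3, beside 16.1% to 24.3% of all genes.

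**Figure D5:**
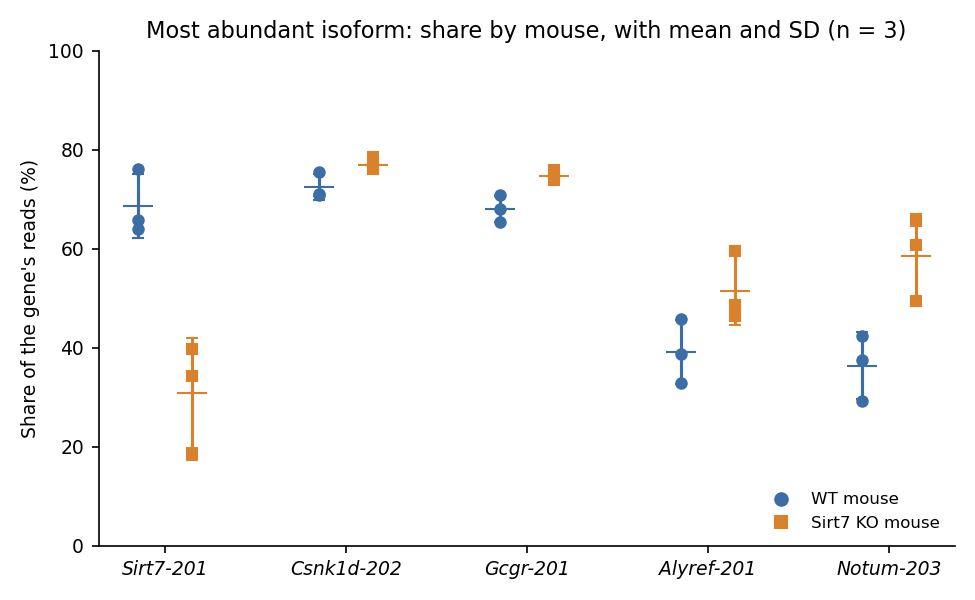
Share of a gene's reads on its most abundant transcript in percent, by mouse and genotype, for *Sirt7* and the 4 members whose genotypes did not overlap. The KO mice are above the WT mice in each of the 4 members, by 22.2 points for *Notum* and 4.5 points for *Csnk1d*. For *Sirt7* the KO mice are below, with a mean of 30.8% beside 68.6% in WT mice.

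The 71 measured members that were not tested had a mean of at most 7.33 reads per mouse, and 36 of them had no read in any mouse. They include 23 protein-coding genes, such as *Pde6g*, a rod photoreceptor phosphodiesterase subunit, with 16, 8 and 8 reads in WT and 4, 6 and 2 reads in KO mice, and *Fscn2*, a retinal fascin, with 0 reads in every mouse. *Rac3*, a small GTPase, had 2, 0 and 1 reads in WT and 1, 1 and 3 reads in KO mice, and *Cd7*, a T cell surface protein, 5, 0 and 5 reads and 6, 1 and 0 reads. Reads of *Hmga1b*, a tested member, may belong to *Hmga1*, since 92.7% of its words of 31 bases are found there too.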

How the data were processed

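Liver RNA of 3 WT and 3 *Sirt7* KO mice had been reverse transcribed with the SMART-seq HT kit and made into Nextera XT libraries, which do not mark strand, and sequenced with single-end reads. The submitters' processing notes name Trim Galore 0.6.5, Salmon 1.2.1 and the build GRCm38, and the annotation release is not given in the sources used here. The authors deposited, per mouse and transcript, Salmon's estimated count, which is not normalized. They also deposited TPM, which is scaled by length within each mouse. Replicates were not pooled.

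Estimated counts were summed per gene of GENCODE M21 and rounded. Of 140992 transcripts, 139172 were found there under an identical version, and 619 under a different one. The other 1201 had no gene, held 0.303% to 0.492% of the reads and were left out. Genes passing filterByExpr (minimum count 10) were compared with edgeR 4.0.16 in R 4.3.3 (quasi-likelihood test, TMM scaling, Benjamini-Hochberg adjustment over all 12524 genes). Called meant an adjusted p under 0.05 and a fold change over 1.5. The alternative tool was DESeq2 1.42.0. Transcript shares needed a mean of 10 reads per gene. Sums were compared by exact permutation, and *Sirt7* by exact permutation of log2(CPM + 0.5). Tables were handled with Python 3.11.15 and pandas 2.3.3. TPM served only to rank levels between genes and, with effective lengths, for the length offsets. The code was tested on simulated data.

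The members and the role and marker lists were chosen with earlier results of these data known, so no p-value was adjusted over a list. Named genes were *Sirt7*, tested members within 50 kb, members past either tool's threshold, members with an unadjusted p under 0.05 and no overlap, the 5 highest by TPM, the 3 largest separated transcript shares, the largest and smallest values of each role list, and the 2 farthest. Others are described in the text by position, partner or value. Alternatives were other scalings, other filters, length offsets, DESeq2, a replicate block, narrower windows and leaving out each mouse. The depth per mouse limits precision to counting error at best, since no molecular identifiers are named. Mice of one genotype differed by at least 17.5 in chi-square per gene, so each counted as 1 sample.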

Additional observations from a re-analysis of the deposited data

How the results depend on the processing

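No member was called under any setting. Of 430 alternative log2 fold changes of 28 named members and *Sirt7*, 397 kept their direction and their side of the threshold for a call. For members that side never changed, so their exceptions were changes of direction. The unadjusted edgeR p of *Gaa*, *Slc38a10*, *Csnk1d* and *Rnf213* did cross 0.05 in some settings, as given above. The count at an unadjusted edgeR p under 0.05 (5 as reported) was 8 of 97 members with no filter on low counts (8.47% of all genes), 3 within 1 Mb and 3 within 500 kb of *Sirt7*, where fewer members are counted, and 1 to 8 when single mice were left out. The count without overlap (6) was then 10 to 19, and that of transcript shares (4) was 6 to 12; with 2 mice against 3, separation is easier. The median size of the log2 fold change (0.19) was 0.35 with no filter, 0.35 with DESeq2 and 0.45 with DESeq2 and length offsets, where members with fewer reads enter and bring the number to 97, beside 0.58, 0.59 and 0.65 over all genes.

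Signs turned for values near 0. With upper quartile scaling, *Arhgdia* was at −0.0011, *Foxk2* at −0.0072 and *Lrrc45* at −0.0055, and with total counts, which moves all genes down, *Arhgdia* was at −0.12, *Foxk2* at −0.098, *Lrrc45* at −0.13 and *Oxld1* at −0.019. With length offsets edgeR gave 0.17 for *Anapc11*, −0.88 for *Foxk2*, 0.053 for *Nploc4* and 0.80 for *Sirt7*, and DESeq2 gave 0.18, −0.86, 0.061 and 0.81. The cause was not tested. When single mice were left out, *Lrrc45* ranged from −0.19 to 0.39, *Foxk2* from −0.14 to 0.22, *Arhgdia* from −0.11 to 0.27, *Anapc11* from −0.13 to 0.029, *Oxld1* from −0.076 to 0.18, *Aspscr1* from −0.024 to 0.29, *Ccdc57* from −0.20 to 0.77, *Endov* from −0.21 to 0.17 and *Nploc4* from −0.043 to 0.012.

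Same-numbered mice are different animals, and their deviations correlated at 0.07, 0.08 and −0.04, so the numbers were not taken as a pairing. With the replicate number as a block, 4 members had an unadjusted edgeR p under 0.05 (11.4% of all genes), the median log2 fold change was 0.04 and its median size 0.18. With the block, *Alyref* had an edgeR p of 0.022 and an adjusted p of 0.34. The 9994860 to 13424776 reads per mouse leave genes under about 10 reads untested.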
